A study of Mus musculus with 6 samples.

Results

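The spliceosome and splicing regulator families were followed in mouse epiblast-like cells (EpiLCs), with and without Cables2. They were taken as the gene rows whose names begin with Srsf, Hnrnp, Snrp, Sf3a, Sf3b or Prpf and that held 30 or more counts summed over the 6 libraries. The imprinted gene Snrpn and 3 pseudogene rows were left out by name, and Snrpert, at 0 counts, fell under the minimum. This left 64 of the 49585 gene rows: 20 Hnrnp, 13 Prpf, 11 Srsf, 11 Snrp, 6 Sf3b and 3 Sf3a genes. The member nearest to the minimum was Srsf12 with 75 counts, followed by Prpf39 with 441, and all 64 passed the low-count filter of the test.

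EpiLCs are cultured cells that resemble the epiblast shortly after implantation. They were made here from C57BL/6 embryonic stem cells (ESCs) that had been kept with LIF and the inhibitors CHIR99021 and PD0325901, and were grown for 2 days on fibronectin in medium with activin A, bFGF and KSR. The groups were 3 wild-type (WT) libraries and 3 libraries of Cables2-/- cells (KO), in which the gene of a protein that binds cyclin-dependent kinases is disrupted, and both groups had the same culture and library preparation. The labels name no ESC clone and leave unsaid whether each library came from its own culture, so the p-values rest on a spread that may be technical.

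The libraries held between 4234788 and 5206717 counts, and a count of 3 corresponded to 0.576 to 0.708 CPM, the count scaled to a common library total. Cables2 averaged 25.8 ± 2.65 CPM over the 3 WT libraries, against 1.39 ± 0.621 CPM over the 3 KO libraries (SD), in the direction of the genotype labels. Of the 6 EpiLC markers, 3 rose and none fell, and of the 6 naive ESC markers 5 fell and none rose. Summed EpiLC markers ran from 2493 to 2753 CPM in WT and from 3040.4 to 3191 CPM in KO, and naive markers from 281 to 340 CPM in WT and from 156 to 168 CPM in KO. Fibroblast markers summed to 16.7 to 17.9 CPM in WT and 18.1 to 23.5 CPM in KO, with 0 of the 2 tested markers called and Postn at 0 in every library. Neural markers summed to 63.7 to 73.9 CPM in WT and 58.5 to 60.4 CPM in KO, without overlap, and of the 5 tested Neurod1 rose (1.94 ± 0.40 at an adjusted p of 0.000128) and Stmn2 fell (-0.51 ± 0.14 at an adjusted p of 0.00495). Primitive endoderm markers summed to 13.6 to 21 CPM in WT and 9.54 to 15.6 CPM in KO, and of the 2 tested Gata4 fell (-1.25 ± 0.45 at an adjusted p of 0.0393). Trophoblast markers summed to 20.6 to 31.5 CPM in WT and 25.8 to 30.8 CPM in KO, with 0 of the 4 tested called and Elf5 at 0 in every library. Mitochondrially encoded transcripts took 0.141% to 0.152% of a WT library and 0.204% to 0.243% of a KO library. The part that these marker and mitochondrial differences have in the results below was not tested.

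Introns are removed from pre-mRNA by the spliceosome, which is built anew on each intron from small nuclear ribonucleoproteins (snRNPs). The U1 snRNP binds the start of the intron, the U2 snRNP with the protein complexes SF3a and SF3b binds its branch point, and the U4/U6.U5 tri-snRNP then brings in the catalytic core. SR proteins (Srsf genes) mostly bind exons and favour their inclusion, while many hnRNP proteins (Hnrnp genes) bind elsewhere and often favour skipping, so the balance between them helps to set which exons a cell uses. Many SR and hnRNP genes also limit their own level through alternative exons that send the transcript to nonsense-mediated decay.

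In the KO, 18 of the 64 genes rose and 2 fell (adjusted p under 0.05 in the quasi-likelihood test of edgeR, with Benjamini-Hochberg adjustment over 11594 tested genes). That was 28.1% of the members higher and 3.12% lower, against 8.13% higher and 9.13% lower among all tested genes. The changes were small. The largest rise was 35.4%, that of Srsf6, and the larger of the falls was 10.4%, that of Hnrnpl. The median log2 fold change (KO minus WT) was 0.10 over the members and 0.0087 over all tested genes, with 45 members above 0 and 19 below. Values in brackets after a gene are its log2 fold change ± SE from that test. The members are more abundant than most genes, with a median of 4046 summed counts against 803, and abundant genes pass the test more often. Among tested genes with at least 1000 summed counts, a minimum chosen after the data were seen, 11.3% were called higher and 14.7% lower. The 60 members past that minimum included all 20 called genes, 30% higher and 3.33% lower. The 3 KO libraries lay above the 3 WT libraries in 19 members and below them in 2, against 15.6% and 16% of all tested genes.

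By family, 4 of 11 Srsf genes rose, all 3 Sf3a genes, 2 of 6 Sf3b, 3 of 13 Prpf, 1 of 11 Snrp and 5 of 20 Hnrnp genes. The members that fell, Hnrnpl and Hnrnpa2b1, were both Hnrnp genes. The median log2 fold change was 0.27 for Sf3a, 0.18 for Prpf, 0.08 for Srsf and Sf3b, and 0.04 for Snrp and Hnrnp. Differences between families were not tested. WT library 01 was the lowest WT library in 44 members, or 68.8%, against 34.5% of all tested genes. It also had the largest share of the row Gm26917, 10.2% of its counts against 8.34% to 9.23% in the others. Without it 10 members rose, without WT library 02 or 03 only 1 fell, and DESeq2 gave 12 higher and 1 lower. Every called member kept its call when the row Gm26917 was removed from all libraries. Why WT library 01 was the lowest WT library in so many members was not tested.

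**Figure D1:**
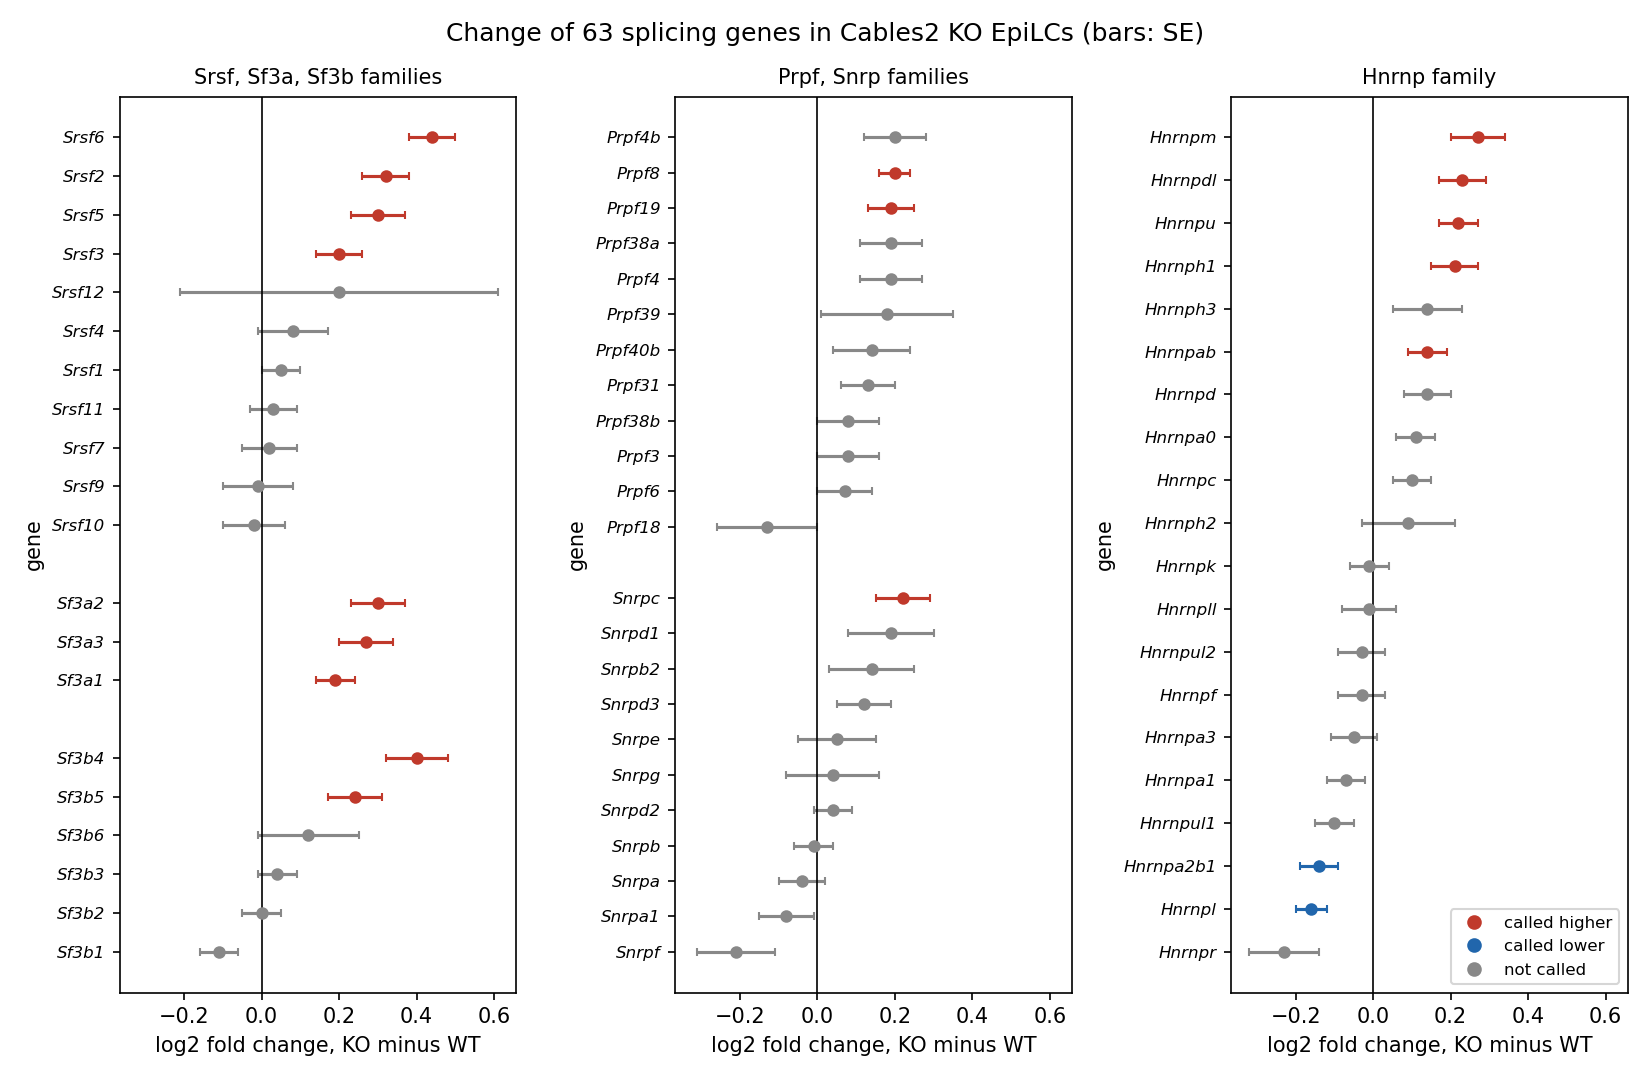
Log2 fold change (KO minus WT, horizontal axis) of 63 of the genes, in panels by family, with the standard error of the fit as a bar and the colour giving the call at an adjusted p under 0.05. The called rises run up to Srsf6 at 0.44 and Sf3b4 at 0.40, the called falls are Hnrnpl and Hnrnpa2b1, and the wide bar belongs to Srsf12, which had 75 counts in all.

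The SR proteins carry 1 or more RNA-binding domains and a tail rich in arginine and serine. Srsf6 and Srsf2, which act on exon enhancers in many transcripts, were the SR genes with the largest change. Srsf6 (ENSMUSG00000016921.14, chromosome 2, 162931528 to 162937121, plus strand, mm10) was at 157, 173 and 163 CPM in WT libraries 01, 02 and 03, against 225, 206 and 236 CPM in KO libraries 04, 05 and 06. The groups did not overlap, and the mean went from 164 ± 7.80 to 223 ± 15.3 CPM (SD, n = 3 each; log2 fold change 0.44 ± 0.06 at an adjusted p of 2.16e-08). Srsf2 (ENSMUSG00000034120.18, chromosome 11, 116849901 to 116853094, minus strand) was at 214, 201 and 224 CPM in the WT libraries, against 256, 244 and 298 CPM in the KO libraries, with every KO library above every WT library. Its log2 fold change was 0.32 ± 0.06 at an adjusted p of 2.14e-05.

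Srsf5 was at 119.6, 123 and 148 CPM in the WT libraries, against 173, 145 and 162 CPM in the KO libraries (0.30 ± 0.07 at an adjusted p of 0.000785). Its groups overlapped, since KO library 05 at 145 CPM lay under WT library 03 at 148 CPM. Srsf3, the smallest SR protein, also rose (0.20 ± 0.06 at an adjusted p of 0.0202), from 193, 237 and 199 CPM in the WT libraries, against 239, 219.6 and 264 CPM in the KO libraries, with WT library 02 inside the KO range. The call of Srsf3 ended without KO library 04 (adjusted p = 0.0604), KO library 06 (0.229), WT library 01 (0.165) or WT library 03 (0.0988), and in DESeq2 (0.119), which called 3 SR genes. Srsf6, Srsf2 and Srsf5 kept their calls whichever of the 6 libraries was dropped. At an FDR under 0.05 the authors' deposited table has 7 of the 64 members higher and 1 lower, where 4.01% and 4.74% of its rows with a count are. Those 17987 rows include genes that failed the low-count filter of the edgeR test, which all members passed. The shares are therefore not those of like genes. The authors' table lists Srsf6 (signed fold 1.35, FDR = 3.83e-08) and Srsf2 (1.25, FDR = 0.00704) as higher in KO, and no other SR gene. The rest of its calls among the members in the authors' deposited table were Prpf19, Prpf8, Sf3a3, Sf3b4 and Sf3b5 higher and Hnrnpl lower.

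The other 7 SR genes did not pass the test, and their fitted log2 fold changes ran from -0.02 to 0.20. Srsf1, the SR gene with the most counts and a classical splicing activator, was at 434, 488 and 466 CPM in the WT libraries, against 507, 439 and 493 CPM in the KO libraries (0.05 ± 0.05 at an adjusted p of 0.539). WT and KO overlapped, and the 95% interval of the fitted change spanned -0.05 to 0.15. Srsf7, a close relative of Srsf3, had a log2 fold change of 0.02 ± 0.07 at an adjusted p of 0.911 (95% interval -0.11 to 0.15). Srsf10 and Srsf9 were at -0.02 and -0.01, Srsf11 at 0.03 and Srsf4 at 0.08 on the log2 scale. Srsf12, a tissue-restricted SR gene, had 9 to 16 counts in each library, and a change was not detectable at this depth (0.20 ± 0.41).

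The promoters of the 4 SR genes that were called higher are shown, to put their sequences beside their values, as the 150 bases before the RefSeq start (GRCm38.p6). Capitals mark the motifs, each searched on both strands. The GC box was searched as GGGCGG. The CCAAT box was searched by that name as its letters. For the ETS core the letters were CCGGAAG. For the TATA box they were TATAAA.
Srsf6, chr2:162931358-162931507, plus strand: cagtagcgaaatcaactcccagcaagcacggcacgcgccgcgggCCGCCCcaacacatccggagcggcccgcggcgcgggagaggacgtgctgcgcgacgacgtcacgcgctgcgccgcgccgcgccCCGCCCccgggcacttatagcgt
Srsf2, chr11:116853095-116853244, minus strand: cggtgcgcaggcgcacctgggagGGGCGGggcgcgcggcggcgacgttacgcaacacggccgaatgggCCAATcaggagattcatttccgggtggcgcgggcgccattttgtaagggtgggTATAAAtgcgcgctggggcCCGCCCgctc
Srsf5, chr12:80945349-80945498, plus strand: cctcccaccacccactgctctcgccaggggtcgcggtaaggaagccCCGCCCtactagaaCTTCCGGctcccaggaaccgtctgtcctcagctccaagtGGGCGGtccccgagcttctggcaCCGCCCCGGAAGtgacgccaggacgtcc
Srsf3, chr17:29032510-29032659, plus strand: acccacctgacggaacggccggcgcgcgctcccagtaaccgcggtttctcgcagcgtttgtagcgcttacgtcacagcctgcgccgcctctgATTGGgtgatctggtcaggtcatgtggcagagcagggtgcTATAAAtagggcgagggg
In this window Srsf6 held 2 GC boxes and none of the other 3 motifs. Srsf2 held a TATA box, a CCAAT box and 2 GC boxes, and Srsf3 a TATA box and a CCAAT box. Srsf5 held 3 GC boxes and 2 ETS cores, of which 1 of each share a base.

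Over the full 250 bases before the start, the RefSeq table held 56 of the 64 members. A GC box was found in 69.6% of these and in 35.4% of all 27025 genes of the table, an ETS core in 32.1% and 7.83%, and a CCAAT box in 48.2% and 37.5%. The letters CACGTG, an E-box bound by Myc and related factors, were in 12.5% of members and 6.86% of all genes. The genes of the table were not limited to those expressed in these cells, as the members are. These shares therefore do not set the members against other expressed genes. The GC box was in 9 of the 15 matched members that rose, in 29 of the 39 that were not called and in 10 of the 11 Srsf genes, called or not. The CCAAT box was in 6 of the 15 and 19 of the 39. None of the 15 held CACGTG, against 7 of the 39. The ETS core was in 6 of the 15 that rose, among them all 3 Sf3a genes, and in 12 of the 39 not called. A TATA box was in 3 of the 15 and 2 of the 39. A match of letters is a description of the window and not a binding site.

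SF3a and SF3b are the protein complexes that turn the U2 snRNP into its branch point binding form. All 3 SF3a genes rose in the KO. Sf3a2 was at 102, 116 and 116 CPM in the WT libraries, against 158, 131 and 121 CPM in the KO libraries (0.30 ± 0.07 at an adjusted p of 0.00171), with KO library 04 the highest by a wide margin. Sf3a3 was at 104, 119.5 and 118 CPM in the WT libraries, against 139, 138 and 133 CPM in the KO libraries (0.27 ± 0.07 at an adjusted p of 0.00276). Sf3a1, the largest SF3a subunit and the gene of the 3 with the most counts, was at 252, 277 and 285 CPM in the WT libraries, against 317, 307 and 302 CPM in the KO libraries (0.19 ± 0.05 at an adjusted p of 0.00723). In all 3 genes the KO libraries lay above the WT libraries. The call of Sf3a2 ended without KO library 04 (adjusted p = 0.13), and those of Sf3a1 (0.103) and Sf3a3 (0.0505) without WT library 01, so that 1 of the 3 was called without that library. DESeq2 called all 3.

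Among the SF3b genes, Sf3b4 and Sf3b5 rose and the large core subunits did not pass the test. Sf3b4, an RNA-binding subunit that contacts the pre-mRNA near the branch point, was at 72.1, 84.5 and 77.5 CPM in the WT libraries, against 117, 97.7 and 92.0 CPM in the KO libraries. Every KO library was above every WT library, and the mean went from 78.0 ± 6.21 to 102 ± 13.3 CPM (SD, n = 3 each; 0.40 ± 0.08 at an adjusted p of 0.000136). Sf3b5, a small structural subunit, was at 98.5, 95.2 and 95.0 CPM in the WT libraries, against 107, 116 and 118 CPM in the KO libraries (0.24 ± 0.07 at an adjusted p of 0.0112). The call of Sf3b5 ended without KO library 05 (adjusted p = 0.0531) or KO library 06 (0.0673), which left 1 called SF3b gene, and DESeq2 did not call it (0.0676).

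Sf3b1, the scaffold of the complex and a frequent target of mutation in human leukaemia, went the other way without passing the test (-0.11 ± 0.05 at an adjusted p of 0.136). Its KO libraries were at 278, 275 and 295 CPM, below the WT libraries at 315, 296 and 305 CPM. Sf3b3, the SF3b gene with the most counts, was at 569, 587 and 571 CPM in the WT libraries, against 609, 574 and 589 CPM in the KO libraries (0.04 ± 0.05 at an adjusted p of 0.662; 95% interval -0.05 to 0.13). Its groups overlapped. Sf3b2 had a log2 fold change of 0.00 ± 0.05 at an adjusted p of 0.976, and Sf3b6, whose protein touches the branch point adenosine, 0.12 ± 0.13 at an adjusted p of 0.575. The summed CPM of SF3a over that of SF3b was 0.288, 0.316 and 0.322 in WT and 0.366, 0.359 and 0.338 in KO, without overlap.

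**Figure D2:**
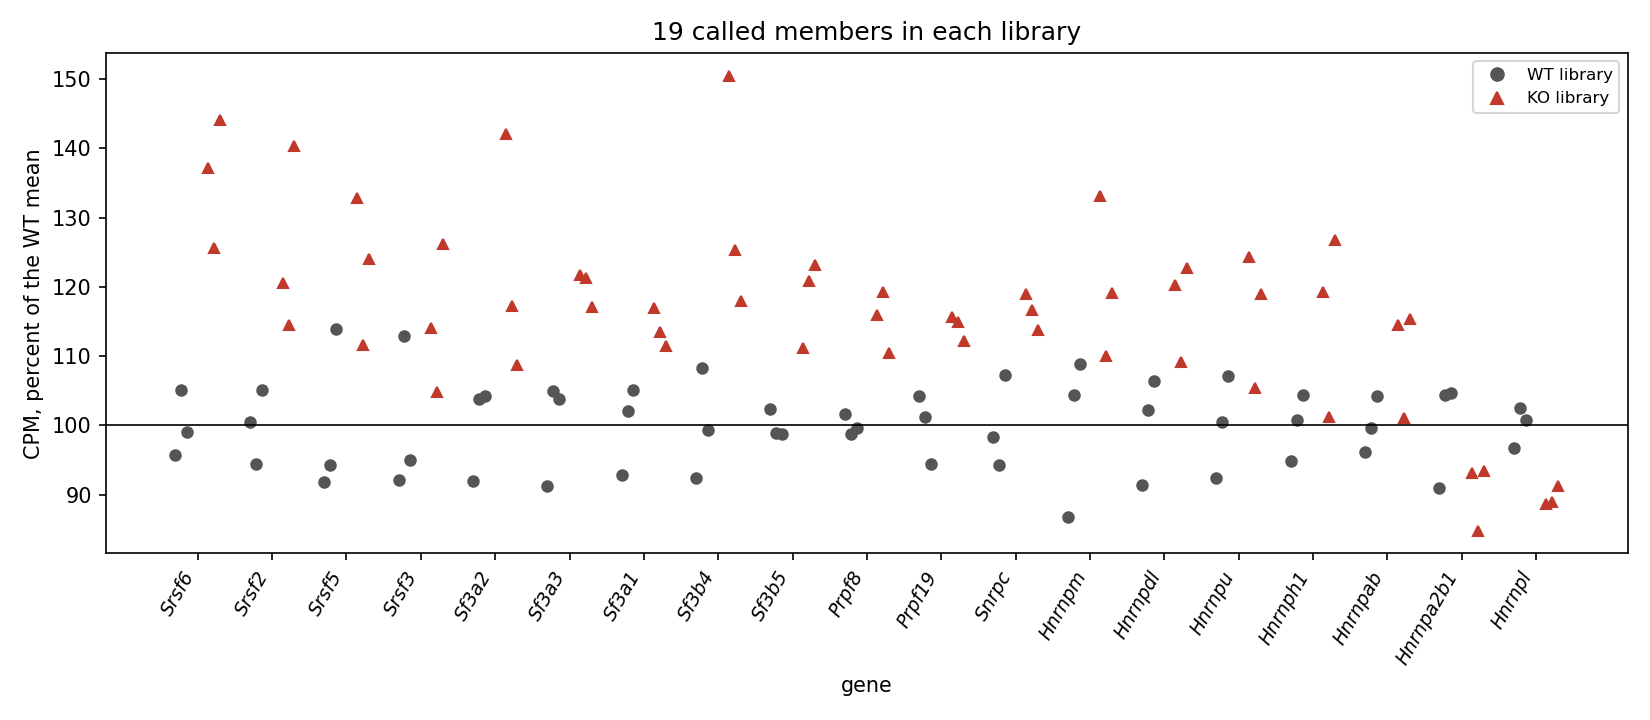
CPM of 19 of the called genes in each library, as a percentage of that gene's WT mean (vertical axis), with WT libraries as circles and KO libraries as triangles. KO triangles stand above the circles for most genes, WT and KO overlap for Srsf5, Srsf3, Hnrnpu, Hnrnph1, Hnrnpab and Hnrnpa2b1, and Hnrnpl and Hnrnpa2b1 sit below their WT mean.

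The Prpf genes encode proteins of the U5 and U4/U6 snRNPs and of the complexes that activate the spliceosome. Prpf8, the large U5 protein at the catalytic centre, was at 896, 871 and 878 CPM in the WT libraries, against 1022, 1051 and 974 CPM in the KO libraries. The groups did not overlap, and the change of 0.20 ± 0.04 at an adjusted p of 0.000212 kept its call whichever library was dropped. Prpf19, a ubiquitin ligase that stabilises the activated spliceosome, was at 225, 218 and 204 CPM in the WT libraries, against 249, 248 and 242 CPM in the KO libraries (0.19 ± 0.06 at an adjusted p of 0.00972). Its 3 KO libraries lay above the 3 WT libraries, and its call ended without WT library 03 (adjusted p = 0.104).

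In the 10 Prpf genes that did not pass, fitted changes ran from -0.13 to 0.20, and only Prpf18, a second-step factor, was below 0. The kinase gene Prpf4b (0.20 ± 0.08 at an adjusted p of 0.0713), Prpf38a (0.19 ± 0.08 at an adjusted p of 0.102), the U4/U6 gene Prpf4 (0.19 ± 0.08 at an adjusted p of 0.121) and Prpf39 (0.18 ± 0.17 at an adjusted p of 0.538) had all KO libraries above all WT libraries, and Prpf4b was called with upper-quartile factors (0.0477) or library size alone (0.0482). That made 7 of 13 Prpf genes without overlap in the upward direction, against 15.6% of all tested genes. The tri-snRNP genes Prpf3, Prpf31 and Prpf6 had changes of 0.08, 0.13 and 0.07 on the log2 scale, and their groups overlapped.

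The Snrp genes encode the Sm proteins that ring each spliceosomal snRNA, and proteins particular to the U1 and U2 snRNPs. Only Snrpc, which encodes protein C of the U1 snRNP and helps it to recognise the start of an intron, was called. It was at 93.2, 89.4 and 102 CPM in the WT libraries, against 113, 110.5 and 108 CPM in the KO libraries (0.22 ± 0.07 at an adjusted p of 0.0244). The call ended without KO library 04 (adjusted p = 0.09), KO library 05 (0.0633), WT library 01 (0.0667) or WT library 02 (0.143), and DESeq2 did not make it (0.12). The share of Snrp genes called higher, 9.09%, was near the 8.13% of all tested genes.

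Snrpb, which encodes SmB and had the most counts of the family, was at 297, 298 and 309 CPM in the WT libraries, against 296, 284 and 319 CPM in the KO libraries (-0.01 ± 0.05 at an adjusted p of 0.927; 95% interval -0.11 to 0.09). Among the other Sm genes, Snrpd1, Snrpd2 and Snrpd3 had log2 fold changes of 0.19, 0.04 and 0.12, Snrpe 0.05, Snrpg 0.04 and Snrpf -0.21. None of these passed, with adjusted p from 0.134 for Snrpf upwards, although Snrpf was called lower without KO library 05 (adjusted p = 0.0224). The U1 protein A gene Snrpa (-0.04) and the U2 genes Snrpa1 (-0.08) and Snrpb2 (0.14) were not called either.

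The Hnrnp family was mixed, with 10 genes above 0, 10 below, 5 that rose and 2 that fell. Hnrnpu, a nuclear scaffold and RNA-binding protein and the member with the most counts of all 64, was at 1206, 1312 and 1399 CPM in the WT libraries, against 1623, 1376 and 1553 CPM in the KO libraries (0.22 ± 0.05 at an adjusted p of 0.000706). KO library 05 at 1376 CPM lay under WT library 03 at 1399 CPM, and DESeq2 did not call the gene (0.136). Hnrnpm, a regulator of exon skipping, was at 175, 211 and 219.5 CPM in the WT libraries, against 268, 222 and 240.3 CPM in the KO libraries (0.27 ± 0.07 at an adjusted p of 0.00177). Hnrnpdl, a paralog of Hnrnpd, was at 169.9, 190.1 and 198 CPM in the WT libraries, against 224, 203 and 228 CPM in the KO libraries (0.23 ± 0.06 at an adjusted p of 0.00306). Both had every KO library above every WT library, though for Hnrnpm the nearest pair, WT library 03 and KO library 05, was only 219.5 against 222 CPM. The call of Hnrnpdl ended without WT library 01 (adjusted p = 0.0671), where 2 Hnrnp genes rose, against 3 without KO library 04 or 06.

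Hnrnph1, which binds runs of guanines (0.21 ± 0.06 at an adjusted p of 0.0142), and Hnrnpab (0.14 ± 0.05 at an adjusted p of 0.0225) rose with overlapping groups. The call of Hnrnph1 ended without KO library 04 (adjusted p = 0.0852), KO library 06 (0.194) or WT library 01 (0.0897). That of Hnrnpab ended without KO library 04 (0.149), KO library 06 (0.168), WT library 01 (0.122) or WT library 02 (0.073). DESeq2 called neither.

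Hnrnpl (ENSMUSG00000015165.16, chromosome 7, 28808541 to 28822266, plus strand), which binds CA-rich RNA, fell. It was at 809, 858 and 842 CPM in the WT libraries, against 742, 744 and 763 CPM in the KO libraries, with every KO library below every WT library (-0.16 ± 0.04 at an adjusted p of 0.00643). The call held whichever library was dropped, and the authors' deposited table also lists Hnrnpl as lower (signed fold -1.12, FDR = 0.000144). Hnrnpa2b1, a regulator of exon skipping and RNA transport, was at 634, 727 and 729 CPM in the WT libraries, against 649, 591 and 650.5 CPM in the KO libraries (-0.14 ± 0.05 at an adjusted p of 0.0273). WT library 01 lay within the KO range, and the call ended without WT library 02 (adjusted p = 0.148), WT library 03 (0.174) or KO library 05 (0.226), with library size alone as the scaling (0.0586) and in DESeq2 (0.0662).

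The other 13 Hnrnp genes had fitted changes from -0.23 to 0.14. Hnrnpa1, the classical antagonist of SR proteins at exons, was at 647, 718 and 689.7 CPM in the WT libraries, against 678, 621 and 654 CPM in the KO libraries (-0.07 ± 0.05 at an adjusted p of 0.302; 95% interval -0.16 to 0.02). Its groups overlapped. Hnrnpk, which binds C-rich RNA, had a log2 fold change of -0.01 ± 0.05 at an adjusted p of 0.949 (95% interval -0.10 to 0.08). The lowest fitted change was that of Hnrnpr (-0.23 ± 0.09 at an adjusted p of 0.0811), which was called lower without WT library 01 (adjusted p = 0.0218). Hnrnpd (0.14 ± 0.06 at an adjusted p of 0.0677) was called higher without WT library 02 (0.0202), under library size alone (0.0413) and under upper-quartile factors (0.038). Hnrnpa0 was called higher with upper-quartile factors (0.0496). Within pairs of related genes the fitted changes were 0.23 for Hnrnpdl against 0.14 for Hnrnpd, 0.21 for Hnrnph1 against 0.09 for Hnrnph2 and -0.03 for Hnrnpf, and -0.16 for Hnrnpl against -0.01 for Hnrnpll. The difference within these pairs was not tested.

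Summed over its genes, each family can be set beside the others in every library. The SR genes summed to 1669, 1815 and 1782 CPM in WT, against 1997, 1816 and 2045 CPM in KO, and the lowest KO library (05) was nearly level with the highest WT library (02). The Hnrnp genes summed to 7530.4, 8073 and 8148 CPM in WT, against 8423, 7750.2 and 8362 CPM in KO and overlapped. The ratio of the SR to the Hnrnp sum was 0.222, 0.225 and 0.219 in WT and 0.237, 0.234 and 0.245 in KO. This ratio did not overlap between groups, and its KO mean was 108% of the WT mean. The Prpf sum was 2033, 2082 and 2073 CPM in WT, against 2356, 2318 and 2303 CPM in KO, again without overlap, while the Sf3b and Snrp sums overlapped, with KO means at 102% of WT for both. Sums lean on the abundant members, Hnrnpu above all in the Hnrnp sum. The sum over all 64 genes was 14560.5, 15379 and 15468 CPM in WT, against 16378 (library 04), 15363 (05) and 16276 (06) CPM in KO. It overlapped, with the KO mean at 106% of the WT mean. As shares of the unscaled counts the 64 genes took 1.43% to 1.54% of the counts of a WT library and 1.55% to 1.64% of those of a KO library, in bulk RNA that cannot tell more RNA per cell from more cells with that RNA.

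**Figure D3:**
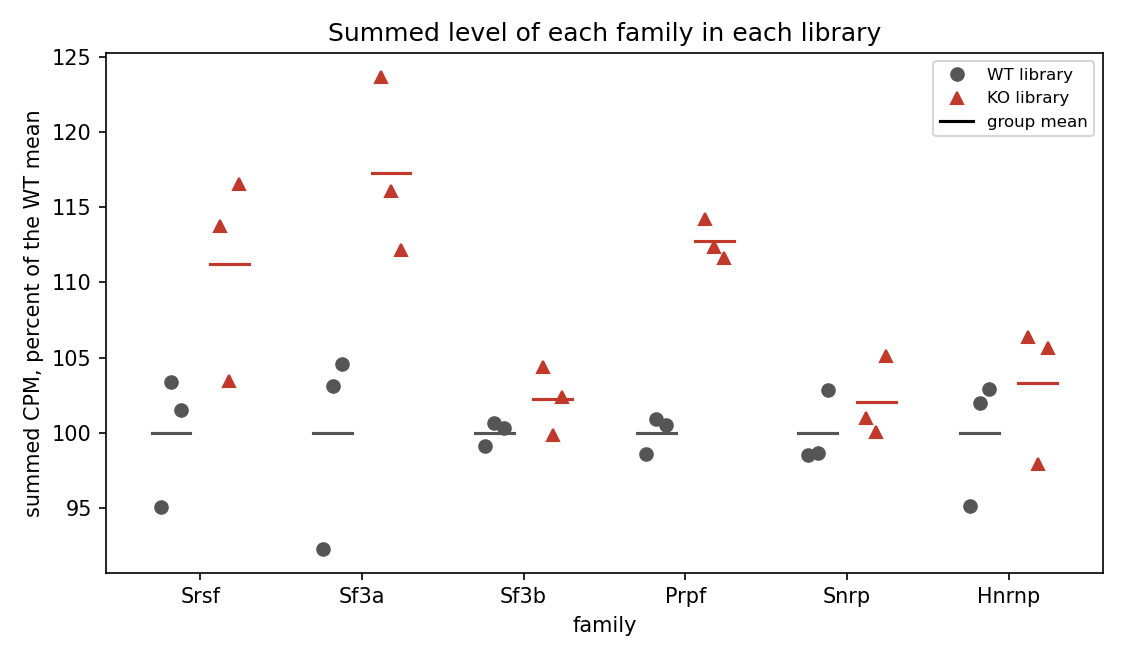
Summed CPM of each family in each library as a percentage of the WT mean (vertical axis), with WT libraries as circles, KO libraries as triangles and group means as short lines. The KO means are 117% of WT for Sf3a, 113% for Prpf and 111% for Srsf, and 102% to 103% for Sf3b, Snrp and Hnrnp.

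Per length, as CPM over the kilobases of annotated exon (GENCODE M21), the families spanned a wide range of levels. Hnrnpab was highest with 292 ± 11.9 CPM per kilobase in WT against 322 ± 23.3 in KO (SD, n = 3 each), followed by Hnrnpa1 with 217 ± 11.3 CPM per kilobase in WT against 206 ± 9.14 in KO. In the SR family Srsf1 was highest with 81.0 ± 4.73 CPM per kilobase in WT against 84.0 ± 6.31 in KO, and Srsf2 came next with 71.9 ± 3.85 CPM per kilobase in WT against 90.0 ± 9.72 in KO. Srsf6, the gene with the largest rise, was lower in level, with 34.1 ± 1.62 CPM per kilobase in WT against 46.3 ± 3.17 in KO, and Srsf12 was lowest of all 64 with 0.791 ± 0.300 CPM per kilobase in WT against 0.901 ± 0.0854 in KO. Sf3a1, Sf3a2 and Sf3a3 were at 44.1, 41.9 and 40.9 CPM per kilobase in WT, with SDs of 2.80, 2.94 and 3.12. The Sf3b genes ran from 10.8 for Sf3b6 to 76.3 for Sf3b2, and the Prpf genes from 1.22 for Prpf39 to 118 for Prpf8. Genes with many isoforms have more annotated exon than any 1 transcript, which lowers their value on this scale. Across 63 members without Srsf12, the log2 WT mean level in CPM and the log2 fold change had a Pearson r of -0.11. The WT level also enters the fold change, so these values are not independent of each other. For log2 exon length and the log2 fold change r was -0.05. Both values of r describe genes that share the same libraries.

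Counts can be touched by overlapping genes. In GENCODE M21, 21 members share exon bases with a gene on the other strand and 5 with a gene on the same strand, and the strand setting of the counting was not stated. Snrpf shares 85.4% of its exon bases, with Ccdc38 and 4933408J17Rik, which held 0 to 7 counts in each library. Srsf2 shares 25.3%, with Mettl23 and Mfsd11, whose log2 fold changes were -0.06 and -0.04. Hnrnpm shares 14.7% with March2 on its own strand, at a log2 fold change of -0.38 (adjusted p = 0.149).

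Genes of the splicing machinery beyond these families, and of linked processes such as nonsense-mediated decay, were read from 10 lists. Of 189 tested genes 19 rose and 15 fell, or 10.1% and 7.94%, near the shares of all tested genes, with a median log2 fold change of 0.03. These totals include the Lsm list (2 of 13 lower) and the exon junction and decay list (4 of 15 lower), neither with a gene higher. They therefore do not describe splicing genes alone. Of 15 genes of U2 recruitment and the branch point, 3 rose and none fell. That was 20% higher, against 8.13% of all tested genes. Rbm17, which binds the 3′ splice site region with U2 proteins, had 0.31 ± 0.06 at an adjusted p of 8.94e-05, and U2surp, a U2-associated SR-like gene, 0.23 ± 0.06 at an adjusted p of 0.00485. The call of U2surp ended without WT library 01 (adjusted p = 0.135), where 1 gene of the list was called higher, and 1 was called lower without KO library 05. The U2AF genes U2af1 and U2af2, which recruit U2, were at 0.11 and -0.13 on the log2 scale and did not pass.

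In the catalytic complex and its helicases, 3 of 28 rose and 2 fell, or 10.7% and 7.14%, against 8.13% and 9.13% of all tested genes. The intron-binding helicase gene Aqr went from 209.8 ± 11.5 to 284 ± 10.5 CPM (SD, n = 3 each; 0.44 ± 0.06 at an adjusted p of 2.12e-09), the helicase gene Dhx16 changed by 0.34 ± 0.06 at an adjusted p of 1.04e-05, and Xab2 fell (-0.36 ± 0.07 at an adjusted p of 2.28e-05). Wbp11 fell too (-0.20 ± 0.05 at an adjusted p of 0.00354), and only 1 gene of the list fell without KO library 05 (Wbp11 adjusted p = 0.0714) or WT library 03 (0.0517). With upper-quartile factors or library size alone, 5 of the 28 rose. Of the 17 U1 and tri-snRNP genes named otherwise, 2 rose and 2 fell, or 11.8% each. The U1 partner Luc7l3 rose (0.49 ± 0.09 at an adjusted p of 2.19e-05), and the U1 70K gene Snrnp70 (-0.26 ± 0.06 at an adjusted p of 0.00139) and Usp39 (-0.39 ± 0.07 at an adjusted p of 6.81e-06) fell. The second rise, that of Sart1 (0.20 ± 0.07 at an adjusted p of 0.0434), was lost on dropping any library but KO library 05, for example WT library 01 (adjusted p = 0.15). The large U5 genes Snrnp200 and Eftud2 had log2 fold changes of 0.07 and 0.04 and did not pass.

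SR-related proteins rose in 3 of 22 tested genes, 13.6% against 8.13% of all tested genes, with none lower. They included Scaf4, which binds RNA polymerase II (0.52 ± 0.07 at an adjusted p of 4.76e-09), and Bclaf1 (0.39 ± 0.05 at an adjusted p of 2.88e-08). The number was 5 without WT library 03, and also with upper-quartile factors or library size alone, while DESeq2 called 2 genes of the list. Among the kinases and phosphatases that act on SR proteins, 0 of 11 were called higher and 1 lower, 9.09% against 9.13% of all tested genes. The gene was Clk3 (-0.37 ± 0.13 at an adjusted p of 0.0422). Its call ended without KO library 04 (adjusted p = 0.204), KO library 05 (0.0818), WT library 02 (0.293) or WT library 03 (0.0769), in DESeq2 (0.178) and under both of those scalings (0.0538 at most). Without WT library 01, 1 kinase or phosphatase gene was called higher. Among 42 other regulators of alternative splicing 6 rose (14.3%) and 3 fell (7.14%), or 1 without KO library 06. Nova2, known from neurons, rose from 11.8 ± 1.09 to 18.6 ± 3.14 CPM (0.66 ± 0.18 at an adjusted p of 0.00451) and Mbnl2 by 0.51 ± 0.12 at an adjusted p of 0.000855, while Pcbp1 (-0.18 ± 0.04 at an adjusted p of 0.0015) and Tia1 (-0.51 ± 0.15 at an adjusted p of 0.00981) fell. The call of Tia1 ended without KO library 06 (adjusted p = 0.087) or WT library 01 (0.0725) and in DESeq2, where 3 of these regulators rose. Of the 5 tested neural markers, 1 rose and 1 fell beside Nova2, and their part in its rise was not tested. Ptbp1, a repressor of neural exons, had a log2 fold change of -0.02 ± 0.05 at an adjusted p of 0.813.

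The exon junction complex and nonsense-mediated decay list had 4 of 15 genes lower, 26.7% against 9.13% of all tested genes, and none higher. Upf1, the central helicase of decay, went from 572 ± 6.46 to 461 ± 13.7 CPM (SD, n = 3 each; -0.31 ± 0.05 at an adjusted p of 2.27e-07), and the decay factor gene Smg5 from 204 ± 20.6 to 138 ± 5.74 CPM (-0.56 ± 0.06 at an adjusted p of 4.49e-11). Both had every KO library below every WT library. Magohb, a gene of the junction complex, fell from 13.7 ± 2.08 to 7.81 ± 1.51 CPM (-0.79 ± 0.21 at an adjusted p of 0.00368).

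Of the genes that assemble snRNPs, 2 of 16 rose and 1 fell, or 12.5% and 6.25%, against 8.13% and 9.13% of all tested genes. Smn1 itself had a log2 fold change of 0.05 ± 0.08 at an adjusted p of 0.751. Gemin7 rose (0.60 ± 0.18 at an adjusted p of 0.0109) and Ddx20 rose (0.32 ± 0.09 at an adjusted p of 0.0067), while the methyltransferase gene Prmt5, which prepares Sm proteins for assembly, fell (-0.19 ± 0.06 at an adjusted p of 0.015). Each of these ended without a library: Gemin7 without KO library 04 (adjusted p = 0.0759) or WT library 01 (0.0518), Ddx20 without KO library 06 (0.0613) and Prmt5 without WT library 02 (0.144). DESeq2 called neither Gemin7 (0.083) nor Ddx20 (0.0519). Of 13 Lsm genes, relatives of the Sm proteins, 2 fell, or 15.4%, and none rose. They were Lsm1 (-0.38 ± 0.12 at an adjusted p of 0.0237) and Lsm4 (-0.21 ± 0.06 at an adjusted p of 0.0102). The call of Lsm1 ended without KO library 04 (adjusted p = 0.0604), KO library 06 (0.0774), WT library 01 (0.104) or WT library 03 (0.0879) and in DESeq2 (0.108), and that of Lsm4 without KO library 06 (0.0503) or WT library 03 (0.0729). Of 10 tested genes of the minor spliceosome, none was called in either direction by edgeR or DESeq2, and 2 had an unadjusted p under 0.05 in edgeR.

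**Figure D4:**
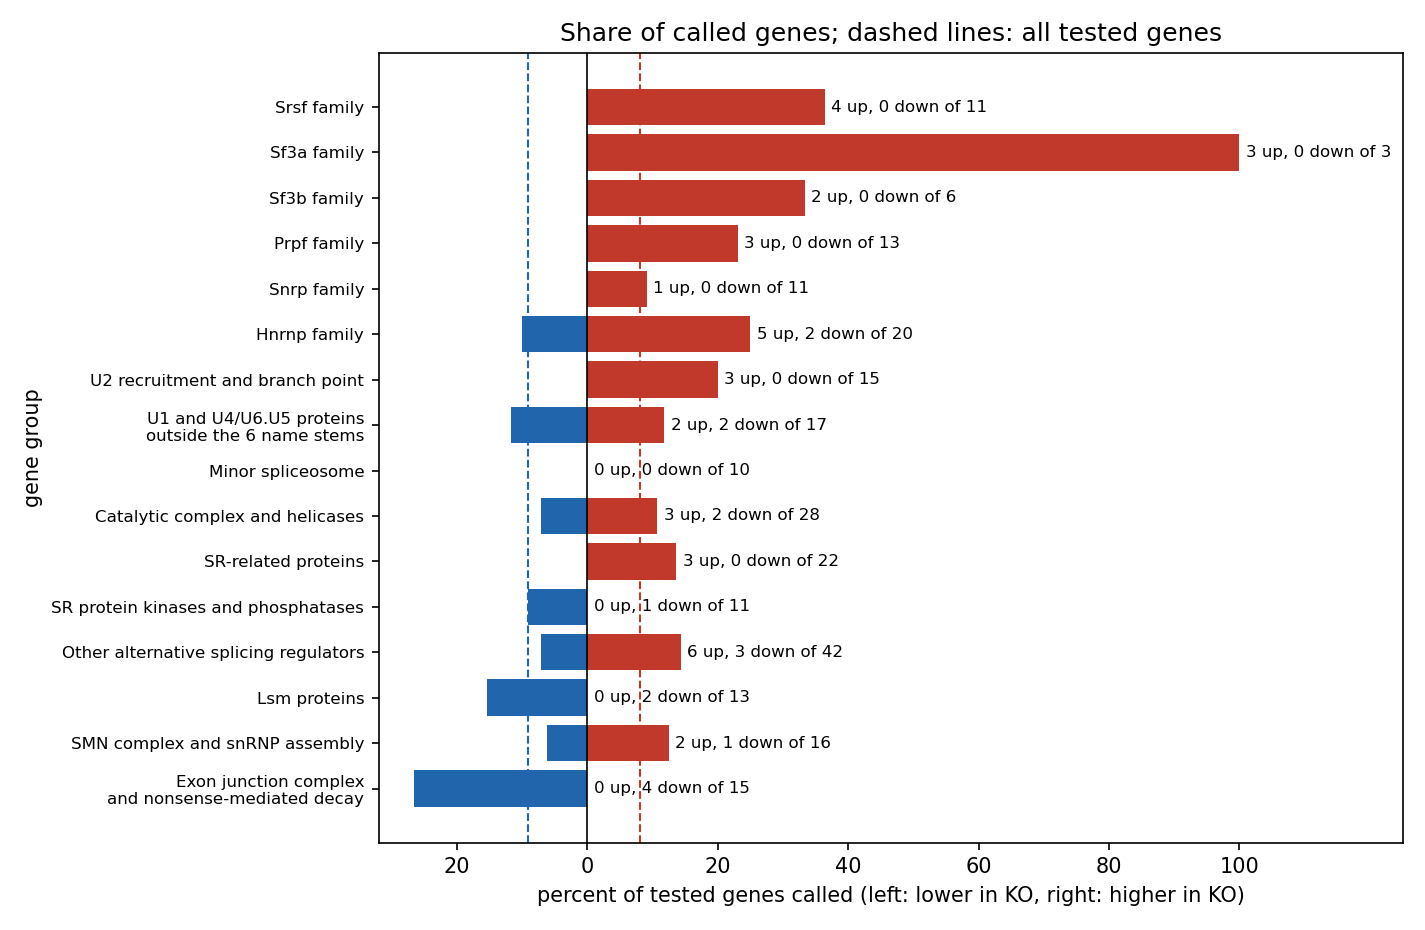
Percentage of tested genes called higher (right, red) and lower (left, blue) in KO for each family and each of the other lists. Counts stand at the bars, and dashed lines give the shares of all tested genes. The bars of Sf3a, Srsf and Sf3b reach farthest to the right, with 3 of 3, 4 of 11 and 2 of 6 genes, and that of the exon junction and decay list farthest to the left, with 4 of 15.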

How the data were processed

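RNA from 3 WT and 3 KO libraries of EpiLCs was sequenced in paired ends of 36 bases from 500 ng of rRNA-depleted RNA with a directional kit, per the labels' protocols. The authors deposited whole-number read counts per gene and library, not normalized, per the file headers. The same table holds the authors' p-values, FDR correction and signed fold score of their EDGE test, per the file headers. The submitters' processing notes list mm10 and edgeR, and neither the aligner nor the counting settings were stated. Another 18 columns of values per library (RPKM, normalized or transformed) were not used.

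Columns were assigned to groups by name. Counts were filtered with filterByExpr (11594 genes left), given TMM factors between 0.987 and 1.02, and tested with edgeR 4.0.16 under R 4.3.3 (robust quasi-likelihood, group as the only term), with Benjamini-Hochberg adjustment over all tested genes. The common biological coefficient of variation was 5.03%. A value after ± beside a log2 fold change is the SE, the fold change over the root of its F statistic, and 95% intervals rest on it. CPM use TMM-scaled library sizes. Floors cover counting error alone, as PCR copies cannot be told from separate molecules here. Alternatives were other scalings, other filters, DESeq2 1.42.0, removal of Gm26917 and each library left out. Symbols and coordinates (1 added to the start) were compared with GENCODE M21, where all 64 members were found, 53 with identical coordinates.

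The members and lists were chosen with earlier results of these data known, so no test over a list was made. Values in every library are given for up to 3 higher and 3 lower called members of each family with the largest change and for the member with the most counts. Of the other lists, up to 2 higher and 2 lower called genes are named by that rule. Genes named beyond it for their role or their behaviour without a library, such as Srsf3, Sf3b1, Hnrnpr and Ptbp1, were chosen after their values were seen. Some genes that enter the counts are not reported here by name or drawn gene by gene.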

Additional observations from a re-analysis of the deposited data

How the results depend on the processing

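No paired analysis was possible because the count columns carry library numbers 01 to 06 and not the replicate numbers of the labels, so the planned replicate block was not run. Over the library left out in turn, the counts ran as follows. All genes: 719 to 823 higher and 820 to 923 lower. Members: 10 to 17 higher and 1 to 3 lower. Families, higher: Hnrnp 2 to 5, Srsf 3 to 4, Prpf 2 to 3, Sf3a 1 to 3, Sf3b 1 to 2, Snrp 0 to 1, and lower: Hnrnp 1 to 3, Snrp 0 to 1. Of the family medians and other lists, those with larger shifts are given, and some of the rest moved by less. Family medians (log2): Prpf 0.13 to 0.18, Sf3b 0.03 to 0.11, Snrp -0.04 to 0.09. Other lists, higher: U2 recruitment 1 to 4, U1 and tri-snRNP 1 to 2, SR-related 2 to 5, SR kinases 0 to 1, snRNP assembly 1 to 2. Other lists, lower: U2 recruitment 0 to 1, catalytic complex 1 to 3, SR kinases 0 to 1, other regulators 1 to 3, Lsm 0 to 2, snRNP assembly 0 to 1. Of the 20 called members, 8 stayed called in all 6 of these fits: Srsf6, Srsf2, Srsf5, Sf3b4, Prpf8, Hnrnpu and Hnrnpm higher and Hnrnpl lower. DESeq2 called fewer genes, 498 higher and 646 lower, with 12 members higher and 1 lower, 2 Hnrnp higher and 1 lower, 1 Sf3b, 0 Snrp, and in the other lists 1 U1 and tri-snRNP gene, 3 other regulators and 0 assembly genes higher, and 0 SR kinases and 1 Lsm gene lower. With library size alone 20 members rose (6 Hnrnp) and 1 fell (Hnrnpl), with upper-quartile factors 21 rose (7 Hnrnp), the added genes being Hnrnpd and Prpf4b in both and Hnrnpa0 in the latter. With library size alone as with upper-quartile factors 5 catalytic and 5 SR-related genes rose and 0 SR kinases fell. With no filter, or with 1 CPM in 3 libraries as the filter, 1 U1 and tri-snRNP gene rose. Apart from these, called members kept their direction in every alternative. Uncalled members near 0 changed sign: with upper-quartile factors or library size alone Hnrnpk, Sf3b2 and Srsf9 were at 0.01, Hnrnpll and Snrpb between 0.00 and 0.01, and without 1 library the ranges were Hnrnpf -0.08 to 0.01, Hnrnph2 -0.03 to 0.18, Hnrnpk -0.03 to 0.02, Hnrnpll -0.06 to 0.01, Hnrnpul2 -0.06 to 0.01, Prpf38b 0.00 to 0.13, Sf3b2 -0.03 to 0.02, Snrpa -0.07 to 0.01, Snrpb -0.06 to 0.03, Snrpb2 -0.01 to 0.30, Snrpd2 0.00 to 0.07, Snrpe -0.04 to 0.11, Snrpg -0.11 to 0.22, Srsf10 -0.10 to 0.03, Srsf11 -0.02 to 0.06, Srsf7 -0.01 to 0.04, Srsf9 -0.12 to 0.07. The causes were not tested. Depth limits Srsf12, whose SE was 0.41.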
